A study of Danio rerio with 2 samples.

Results

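The genes described here are 9 components of myelin: the myelin basic protein genes mbpa and mbpb, the myelin protein zero gene mpz, the proteolipid protein genes plp1a and plp1b, the claudin gene cldnk, the myelin-associated glycoprotein gene mag, the galactolipid enzyme gene ugt8 and the membrane protein gene cd59. They were taken by name, 9 of the 32057 features counted in both libraries, and all 9 were found. Their identifiers are ENSDARG00000036186 (mbpa, listed without a symbol), ENSDARG00000089413 (mbpb), ENSDARG00000038609 (mpz), ENSDARG00000103732 (plp1a), ENSDARG00000011929 (plp1b), ENSDARG00000042357 (cldnk), ENSDARG00000104023 (mag), ENSDARG00000037455 (ugt8) and ENSDARG00000090615 (cd59). The data are single-cell 10x counts of unique molecular identifiers (UMIs, each a captured RNA molecule) from the hypothalamus of 6-month-old male zebrafish. The CCK1/2-KO library came from fish with knockout mutations in both ligand genes of the peptide hormone cholecystokinin, CCK1 and CCK2. The WT library came from wild-type fish. Each library is a pool of 30 fish and there is 1 library per genotype, so no comparison between the genotypes has a replicate check, and every interval given is a 95% interval for counting error only.

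Myelin is the multilayered membrane that oligodendrocytes wrap around axons in the brain and spinal cord, and it is compacted by a small set of very abundant membrane and cytoplasmic proteins. Oligodendrocytes arise from precursors that carry the transcription factors olig1, olig2 and sox10, switch on the factor MYRF as they differentiate, and then transcribe myelin genes at levels seen in few other cells. The hypothalamus holds myelinated tracts, and breaking such tissue into single cells releases myelin RNA that droplets with other cells can take up.

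After filtering, 10393 CCK1/2-KO cells with 52541518 UMIs (median 2878 per cell) and 8543 WT cells with 47467489 UMIs (median 3047) were kept. The libraries shared 49 cell barcodes. The edited ligand gene ccka (ENSDARG00000070810) had 163 CPM (a gene's UMIs scaled to a common total, the usual counts-per-million unit) in CCK1/2-KO and 376 in WT (log2 ratio −1.20, −1.24 to −1.17), so its transcript was still present at a lower level in the library labelled CCK1/2-KO; the other edited gene was not analysed here.

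Cells were grouped by their UMIs of a few genes. A cell was called an oligodendrocyte when mbpa, mpz and plp1b together made up 2% or more of its UMIs, which gave 287 CCK1/2-KO and 329 WT cells. Below that limit, cells with less than 10% of their UMIs from the haemoglobin gene hbaa1 were called precursors if they had a UMI of olig1 or sox10 (349 CCK1/2-KO and 369 WT cells), and neurons if they had neither but 3 or more UMIs of pan-neuronal genes (5107 and 4250 cells). Barcodes below it with hbaa1 at 10% or more and no olig1 or sox10 were called hbaa1-rich (533 CCK1/2-KO and 411 WT barcodes). The lowest oligodendrocyte had 2.13% in CCK1/2-KO and 2.01% in WT, the highest cell outside had 1.98% in CCK1/2-KO and 1.92% in WT, and 18 CCK1/2-KO and 55 WT cells lay between 1% and 2%. The cells were also clustered without any of the 9 genes, and 284 of the 287 CCK1/2-KO and 328 of the 329 WT oligodendrocytes fell in the 2 clusters named oligodendrocyte-like. The markers that named the clusters included mbpa, mpz, plp1b, cldnk and mag, so these names are not independent of the rule. Before the removal of likely doublets (droplets with more than 1 cell), 342 CCK1/2-KO and 382 WT cells met the rule and 55 and 53 of these were removed. Of those kept, 200 CCK1/2-KO and 267 WT oligodendrocytes also had 3 or more pan-neuronal UMIs.

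Oligodendrocytes made up 2.76% (2.45 to 3.09) of the CCK1/2-KO cells and 3.85% (3.45 to 4.28) of the WT cells, a ratio of 0.717 (0.614 to 0.838). Their median depth was 4331 UMIs in CCK1/2-KO and 5385 in WT. Markers of other cell types were also counted in these cells, in CPM outside the 9 genes. The 8 macrophage markers summed to 15.5 CPM in CCK1/2-KO oligodendrocytes and 16.1 in WT, and 5 endothelial markers to 8.14 and 5.97. Of 13 neuronal markers, with 1448 CPM in CCK1/2-KO and 1814 in WT, 5 had 100 or more UMIs, and of these 1 was at least 1.5-fold lower in CCK1/2-KO and none was higher. Of 10 astrocyte and radial glia markers, with 5553 and 5470 CPM, 8 had 100 or more UMIs, and of these 2 were higher and 2 lower. Those higher were glulb (2031 in CCK1/2-KO and 1315 in WT) and her4.1 (103 and 61.5), and those lower cyp19a1b (9.76 and 71.0) and s100b (39.1 and 138). Over the 4542 genes with 100 or more UMIs in these cells, 6.56% were at least 1.5-fold higher in CCK1/2-KO and 7.22% lower. The red blood cell markers summed to 2659 CPM in CCK1/2-KO and 3255 in WT. Of 5 with 100 or more UMIs, 2 were at least 1.5-fold lower in CCK1/2-KO and none was higher. The lower ones were hbba2 (50.4 CPM in CCK1/2-KO and 94.9 in WT) and cahz (587 and 925). The part of such RNA in the results below was not tested.

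**Figure D1:**
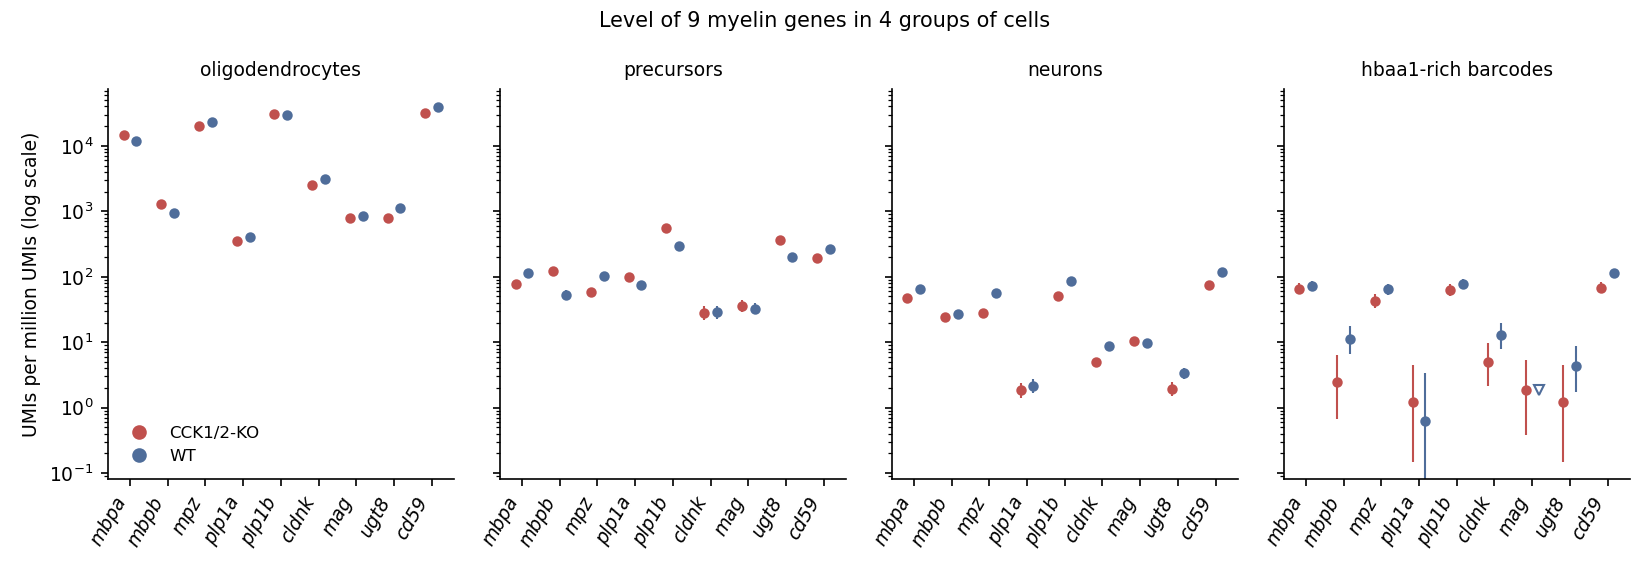
Level of each of the 9 myelin genes (CPM of all UMIs, log scale) in oligodendrocytes, precursors, neurons and hbaa1-rich barcodes, with CCK1/2-KO left of WT, points for the summed counts of a group and bars for exact 95% Poisson intervals. The open triangle marks mag in WT hbaa1-rich barcodes, where no UMI was counted, at the level of 3 counts (1.85 CPM). Each of the 9 genes is highest in oligodendrocytes in both libraries. For mbpa, mpz and plp1b, which chose these cells, this is only a description.

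In oligodendrocytes, the 9 genes together took 10.3% of all UMIs in CCK1/2-KO and 11.1% in WT. Levels in these cells are given in CPM outside the 9 genes, because genes this abundant would otherwise lower one another. A 3′ UMI count does not grow with transcript length, so levels of different genes are set side by side on this scale without a length term. The order of the 5 most abundant genes was the same in both libraries: cd59, plp1b, mpz, mbpa and cldnk. In CCK1/2-KO mbpb came next and ugt8 (873 CPM) and mag (867 CPM) did not differ beyond counting error, while in WT ugt8 (1283 CPM) was above mbpb (1051) and mag (967). The lowest in both was plp1a. None of the 6 genes outside the rule differed 1.5-fold between the libraries (with 5 CPM added to both sides, as in every such count below). Nor did mbpa, mpz and plp1b, which chose the cells and are given as a description. Over the 4542 genes with 100 or more UMIs in these cells, 6.56% were at least 1.5-fold higher in CCK1/2-KO and 7.22% lower. The median log2 ratio over the 9 genes was −0.20, a description, since it includes the 3 that chose the cells. Over all genes tested it was −0.01. Of the 6 genes outside the rule, cd59, cldnk, ugt8, mag and plp1a were lower in CCK1/2-KO and mbpb was higher. Of the 3 that chose the cells, mpz was lower and mbpa and plp1b were higher. Each of these differences was more than counting error under the 2% rule.

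The 6 genes that did not choose the cells summed to 41763 (41403 to 42126) CPM in CCK1/2-KO oligodendrocytes and 51456 (51113 to 51801) in WT, a log2 ratio of −0.30 (−0.32 to −0.29). Most of this sum was cd59, which encodes a membrane-anchored protein that in mammals blocks complement and which in zebrafish is abundant in myelinating glia. Its level was 35353 in CCK1/2-KO and 44225 in WT (log2 −0.32), and its share of a cell's UMIs had quartiles of 2.17%, 2.86% and 3.61% in CCK1/2-KO cells and 2.53%, 3.38% and 4.54% in WT cells. The distributions overlapped widely, with the whole range lying between 0% and 6.30% in CCK1/2-KO and between 0.33% and 9.45% in WT.

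The gene cldnk, which encodes a tight junction protein of fish myelin, stood at 2819 (2726 to 2915) CPM in CCK1/2-KO and 3474 (3385 to 3565) in WT (log2 −0.30). A UMI of it was seen in 277 of 287 CCK1/2-KO cells and 324 of 329 WT cells. The gene mag encodes an adhesion molecule on the membrane that faces the axon. It stood at 867 (815 to 920) in CCK1/2-KO and 967 (921 to 1015) in WT (log2 −0.16, −0.27 to −0.05). The second proteolipid gene, plp1a, had 395 (361 to 432) in CCK1/2-KO and 456 (424 to 489) in WT (log2 −0.20, −0.37 to −0.04). With the cell limit at 1% its log2 ratio was −0.01 (−0.17 to 0.15).

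The largest difference among the 9 was in ugt8, which encodes the enzyme that joins galactose to ceramide to make the main galactolipid of myelin. It stood at 873 (822 to 927) CPM in CCK1/2-KO oligodendrocytes and 1283 (1229 to 1338) in WT, a log2 ratio of −0.56 (−0.66 to −0.45). After each cell was thinned to 1000 UMIs, which left out 15 CCK1/2-KO and 17 WT cells below that depth, ugt8 was seen in 45.6% (39.6 to 51.7) of CCK1/2-KO cells and 59.3% (53.6 to 64.8) of WT cells, against 78.4% and 87.5% without thinning. With likely doublets kept its log2 ratio was −0.66, which passes 1.5-fold. Over all cells of both oligodendrocyte-like clusters it was −0.07, where the smaller of these clusters, described below, had more ugt8 in CCK1/2-KO (log2 0.83).

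The genes mbpa, mpz and plp1b were used to choose the oligodendrocytes, so their levels there are a description. The gene mpz encodes a membrane adhesion molecule that mammals use in peripheral myelin and fish also in the brain. Its level was 22201 CPM in CCK1/2-KO and 26460 in WT (log2 −0.25, −0.27 to −0.23). The gene mbpa, whose protein binds the cytoplasmic faces of the membrane to each other, stood at 16200 in CCK1/2-KO and 13567 in WT (log2 0.26, 0.23 to 0.28). The gene plp1b, for the tetraspan proteolipid protein, stood at 34474 in CCK1/2-KO and 32972 in WT (log2 0.06, 0.05 to 0.08), and its sign turned with the mean over cells in place of the sum (−0.01). In the main oligodendrocyte-like cluster, made without the 9 genes and holding 281 CCK1/2-KO and 317 WT cells, the log2 ratios were −0.26 for mpz, 0.25 for mbpa and 0.06 for plp1b.

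The balance between mbpa and mpz within single cells differed between the libraries. The UMIs of mbpa over those of mpz gave a ratio of 0.730 in CCK1/2-KO oligodendrocytes and 0.513 in WT. In 112 of 287 CCK1/2-KO cells (39.0%) mbpa exceeded mpz, and in 22 of 329 WT cells (6.69%). The same counts in the main cluster were 113 of 281 and 20 of 317 cells. The gene plp1b likewise exceeded mpz in 94.1% of CCK1/2-KO cells and 76.0% of WT cells. The quartiles of a cell's mpz share were 1.05%, 1.46% and 2.18% in CCK1/2-KO and 1.61%, 2.13% and 2.68% in WT, so the CCK1/2-KO median lay below the lower WT quartile. For mbpa the median was 1.40% in CCK1/2-KO and 1.18% in WT.

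**Figure D2:**
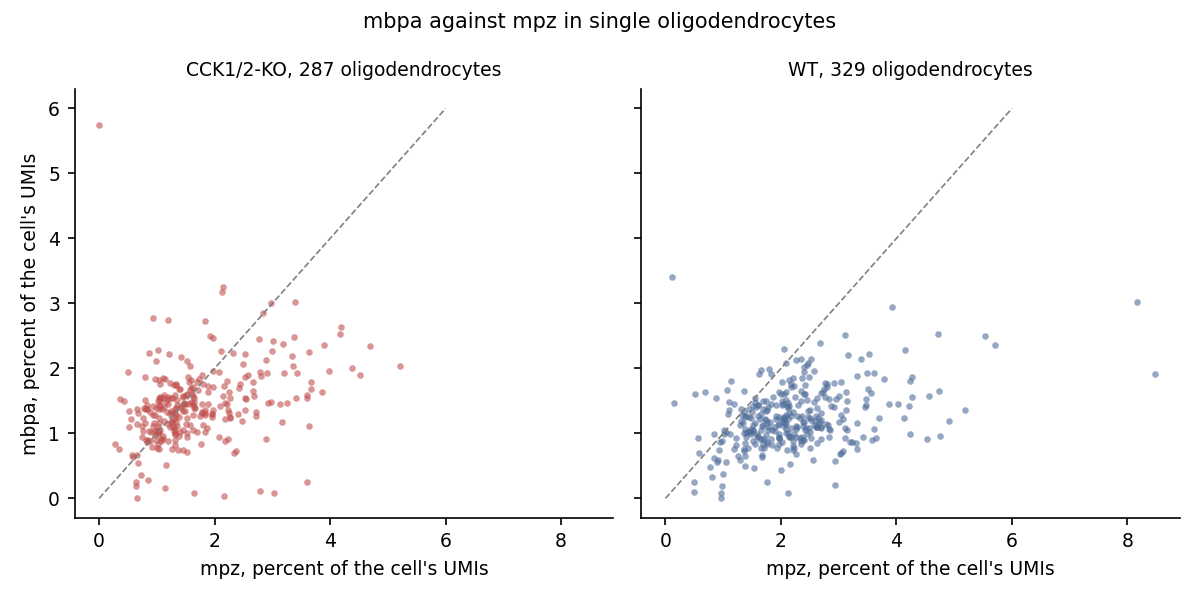
Share of a cell's UMIs from mbpa against that from mpz (both in percent) in 287 CCK1/2-KO oligodendrocytes (left) and 329 WT oligodendrocytes (right), 1 point per cell, with a dashed line where the shares are equal. In CCK1/2-KO 39.0% of the cells lie above the line and in WT 6.69%.

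The ratios moved with the depth of the cells. The log2 ratio of mpz was −0.73 in oligodendrocytes under 2000 UMIs (44 CCK1/2-KO and 44 WT cells), −0.61 from 2000 to 4000 UMIs (81 and 48 cells), −0.39 from 4000 to 8000 UMIs (134 and 181 cells) and 0.20 at 8000 UMIs or more (28 and 56 cells). Thus mpz was lower in CCK1/2-KO in the 3 shallower bands and higher in the deepest. The ratio of cldnk was between −0.53 and −0.42 in the shallower bands and 0.07 (−0.03 to 0.17) in the deepest. For plp1b it was −0.22 in the shallowest and 0.29 in the deepest band. Both ugt8, between −0.81 and −0.30, and cd59, between −0.35 and −0.18, were lower in CCK1/2-KO in every band. For ugt8 the interval of the shallowest band included 0. For mbpa the ratio was positive in every band, between 0.04 and 0.55, with an interval that included 0 from 2000 to 4000 UMIs. With only cells of 2000 to 8000 UMIs, the 6 genes outside the rule had a log2 ratio of −0.25.

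**Figure D3:**
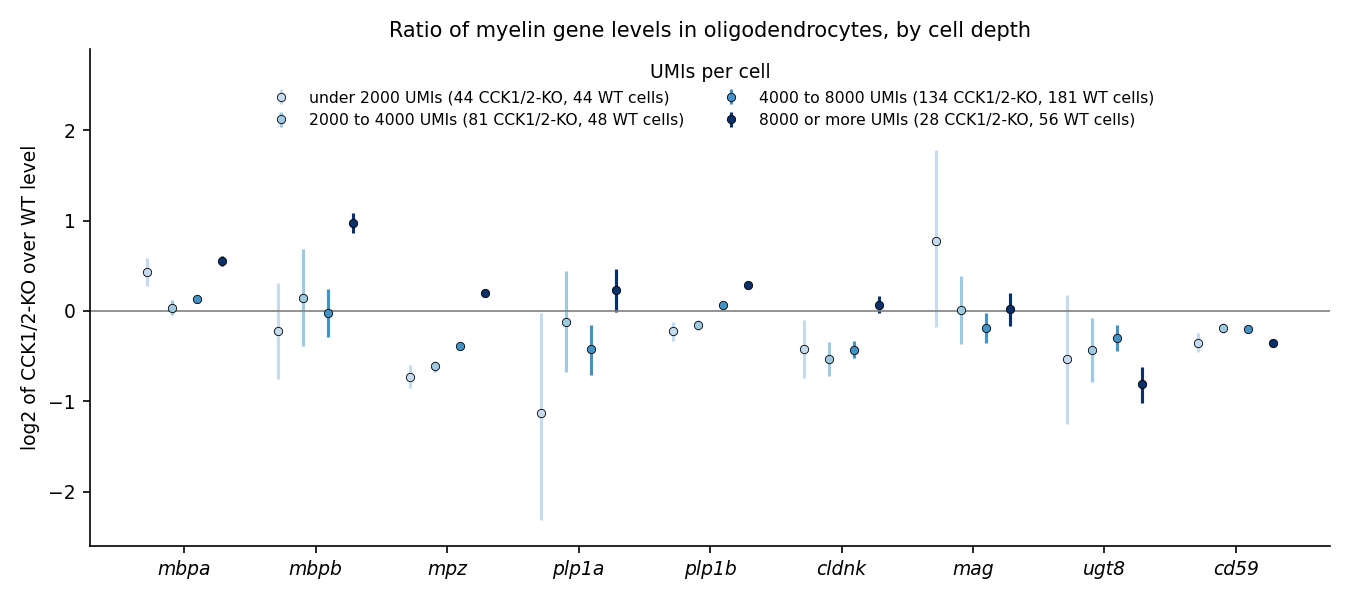
Log2 ratio of CCK1/2-KO over WT of each gene's level in oligodendrocytes (CPM outside the 9 genes), in 4 bands of UMIs per cell from the shallowest (palest, left) to the deepest (darkest, right), with 95% counting intervals. For mpz the ratio runs from −0.73 in the shallowest band to 0.20 in the deepest, while cd59 lies below 0 in all 4 bands.

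The paralogue mbpb was carried by few cells. Its level was 1456 (1389 to 1525) CPM in CCK1/2-KO oligodendrocytes and 1051 (1003 to 1102) in WT (log2 0.47, 0.37 to 0.57), but 109 of 287 CCK1/2-KO and 118 of 329 WT cells had no UMI of it. In each library 3 cells held most of the counts, 54.9% of 1789 UMIs in CCK1/2-KO and 51.8% of 1761 in WT. The highest cells had 368, 310 and 305 UMIs in CCK1/2-KO and 516, 204 and 192 in WT, with depths between 18746 and 34315 UMIs. From 2000 to 8000 UMIs per cell, the log2 ratio of mbpb was 0.05 (−0.18 to 0.28).

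In 5 CCK1/2-KO and 5 WT oligodendrocytes mbpb exceeded mbpa, a set chosen after its values were seen and given as a description. These cells held 68.0% of the mbpb UMIs of CCK1/2-KO oligodendrocytes and 42.4% of those of WT, and 0.357% and 0.422% of the mbpa UMIs. In the other oligodendrocytes mbpb was lower in CCK1/2-KO, at 491 CPM (282 cells) against 626 in WT (324 cells). In summed CPM the cells with more mbpb than mbpa had more cldnk, mag and plp1a than the other oligodendrocytes, in both libraries. The level of cldnk was 7655 CPM in these CCK1/2-KO cells and 2562 in the other CCK1/2-KO oligodendrocytes, and 6790 and 3366 in the WT sets. For mag the values were 2975 and 754 in CCK1/2-KO, and 3319 and 890 in WT. For plp1a they were 1367 and 344 in CCK1/2-KO, and 2489 and 389 in WT. The depth of these cells was between 1215 and 21210 UMIs in CCK1/2-KO (median 18746) and between 1014 and 34315 in WT (median 1714). The deepest cells weigh most in the summed levels. All oligodendrocytes of 8000 UMIs or more had cldnk at 4543 CPM in CCK1/2-KO and 4329 in WT. They had mag at 1263 and 1245, and plp1a at 787 and 670. The part of depth in these levels was not tested.

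From cell to cell, mpz, plp1b and cd59 went together most closely in both libraries. Over the 281 CCK1/2-KO and 317 WT cells of the main cluster, Spearman's rho of the cells' shares was 0.82 in CCK1/2-KO and 0.78 in WT between mpz and plp1b, 0.66 and 0.61 between mpz and cd59, and 0.48 and 0.36 between mbpa and mpz. The rho of mag with mpz was −0.01 in CCK1/2-KO and −0.06 in WT. Cells of 1 library share its preparation and the shares depend on depth, so these values describe the cells and carry no test.

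Other genes of myelin that were listed by name were compared in the same oligodendrocytes. Over all genes tested in these cells, 6.56% were at least 1.5-fold higher in CCK1/2-KO and 7.22% lower. Of 13 further myelin genes with enough counts, none was 1.5-fold higher in CCK1/2-KO and 2 were lower. Among them was tspan2a, which encodes a tetraspanin (2529 CPM in CCK1/2-KO and 3989 in WT, log2 −0.66). The most abundant of the list beside tspan2a were the tetraspanin gene cd9b, with 3894 in CCK1/2-KO and 4037 in WT (log2 −0.05), and the adhesion gene nfasca, with 3461 and 3542 (log2 −0.03). The list's median log2 ratio was −0.02.

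Genes of lipid synthesis, the class of enzyme to which ugt8 belongs, were counted in the same way. Of 13 with enough counts, none was 1.5-fold higher in CCK1/2-KO and 5 were lower, against 6.56% higher and 7.22% lower over all genes. This list, like the others, was chosen with earlier results of these data known, so the count is a description. Some of the 5 had few counts, with 24 and 76 UMIs for dhcr7 and 47 and 126 for cyp51. These genes were not compared by cell depth. The list's median log2 ratio was −0.46, and its summed level was 2795 CPM in CCK1/2-KO and 3745 in WT (log2 −0.42, −0.48 to −0.36). The 5 were the fatty acid elongases elovl1a (54.5 in CCK1/2-KO and 129 in WT, log2 −1.24) and elovl7a (356 and 640, log2 −0.84), the sterol enzymes dhcr7 (19.5 and 45.4, log2 −1.22) and cyp51 (38.2 and 75.2, log2 −0.98), and sptlc2b (55.3 and 108, log2 −0.97), a subunit of the enzyme that starts sphingolipid synthesis. The most abundant of the list was elovl1b, with 792 in CCK1/2-KO and 1076 in WT (log2 −0.44). The ceramide synthase gene cers2a, with 555 and 605 (log2 −0.13), came next in CCK1/2-KO, and in WT came after elovl7a.

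Transcription factors and a receptor of the lineage did not reach 1.5-fold in oligodendrocytes in either direction, in 7 of 7 with enough counts. Over all genes tested there, 6.56% were higher and 7.22% lower. The level of olig2 was 1773 CPM in CCK1/2-KO and 1811 in WT (log2 −0.03), that of MYRF 478 and 486 (log2 −0.02) and that of nkx6.2 419 and 460 (log2 −0.14). The factor sox10 stood at 867 in CCK1/2-KO and 693 in WT (log2 0.32, 0.20 to 0.45), and zeb2a at 557 and 732 (log2 −0.40, −0.53 to −0.26). The remaining members of the list were sox8a (90.3 and 93.7, log2 −0.05) and the receptor gene erbb3b (160 and 188, log2 −0.23).

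Stages of the lineage were compared over 3 clusters that were made without the 9 genes. In these clusters and in the cell groups after them, CPM is of all UMIs. A precursor-like cluster (cluster 17, 112 CCK1/2-KO and 126 WT cells) had olig1 at 471 CPM in CCK1/2-KO and 421 in WT, and cspg4 at 182 and 192, with almost no MYRF (10.6 and 8.75). The receptor gene pdgfra, a precursor marker in mammals, had no UMI in this cluster in either library, which allows up to 2.88 CPM in CCK1/2-KO and 2.19 in WT. The main oligodendrocyte-like cluster (cluster 24) had nkx6.2 at 381 in CCK1/2-KO and 411 in WT, MYRF at 430 and 434, and olig1 at 2.19 and 3.21. A small oligodendrocyte-like cluster (cluster 20, 40 CCK1/2-KO and 69 WT cells) had MYRF at 779 in CCK1/2-KO and 521 in WT and almost no nkx6.2 (3.08 and 10.7). It also held tcf7l2, a factor of newly formed oligodendrocytes in mammals, at 582 in CCK1/2-KO and 203 in WT. Its olig2 was the lowest of the 3 clusters, at 536 in CCK1/2-KO and 410 in WT. The precursor-like cluster had olig2 at 1191 and 695, and the main cluster at 1592 and 1619.

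The 9 genes differed in their levels over these clusters. In the precursor-like cluster ugt8 was the most abundant of the 9, with 102 CPM in CCK1/2-KO and 122 in WT, followed in CCK1/2-KO by mbpb with 68.1 (43.0 in WT). The genes mpz (19.2 and 29.9), plp1b (32.6 and 43.0) and cd59 (32.6 and 56.9) were no higher there than in neurons, whose values are given below. In WT, mbpa had 90.4 in this cluster, with 82.3% of its 124 UMIs in 3 cells, and 41.2 in CCK1/2-KO. Summed over the 9 genes the level was 303 in CCK1/2-KO and 399 in WT (log2 −0.40, −0.60 to −0.20).

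In summed CPM, ugt8 and plp1a in the small oligodendrocyte-like cluster were above their level in the main oligodendrocyte-like cluster, in both libraries. The level of ugt8 was 2714 CPM in CCK1/2-KO and 1524 in WT, against 785 and 1146 in the main cluster, and that of plp1a was 783 and 803, against 357 and 405. The share of cells with a UMI after thinning to 1000 UMIs was not higher in WT. For ugt8 it was 34.0% of WT cells in the small and 59.6% in the main cluster, and for plp1a 28.0% and 30.6%. In CCK1/2-KO these shares were 78.6% and 47.1% for ugt8, and 39.3% and 22.1% for plp1a. Compared with the main cluster, all other members were lower in the small cluster. Between the genotypes, this cluster had less mbpa in CCK1/2-KO (136, against 728 in WT), less mpz (256 and 1178) and less cd59 (1371 and 3180), but more ugt8 and more mbpb (699 and 343). It held 40 CCK1/2-KO cells with a median of 3742.5 UMIs and 69 WT cells with a median of 1378, so the cells compared were of unlike depth. They also differed in make-up: 24 of the 69 WT cells but 1 of the 40 CCK1/2-KO cells met the neuron rule, and pan-neuronal genes stood at 1084 CPM in CCK1/2-KO and 1724 in WT. The part of these differences in the result was not tested. After thinning to 1000 UMIs, which kept 28 CCK1/2-KO and 50 WT cells, mbpa was seen in 17.9% (6.06 to 36.9) and 68.0% (53.3 to 80.5) of them, and ugt8 in 78.6% (59.0 to 91.7) and 34.0% (21.2 to 48.8). Without thinning, mbpa was seen in 16 of 40 CCK1/2-KO and 52 of 69 WT cells, and ugt8 in 27 and 22. Few cells decided some of these values, with 3 cells holding 76.2% of the mbpb UMIs in CCK1/2-KO and 56.3% in WT, and 90.8% and 88.9% of those of mag.

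**Figure D4:**
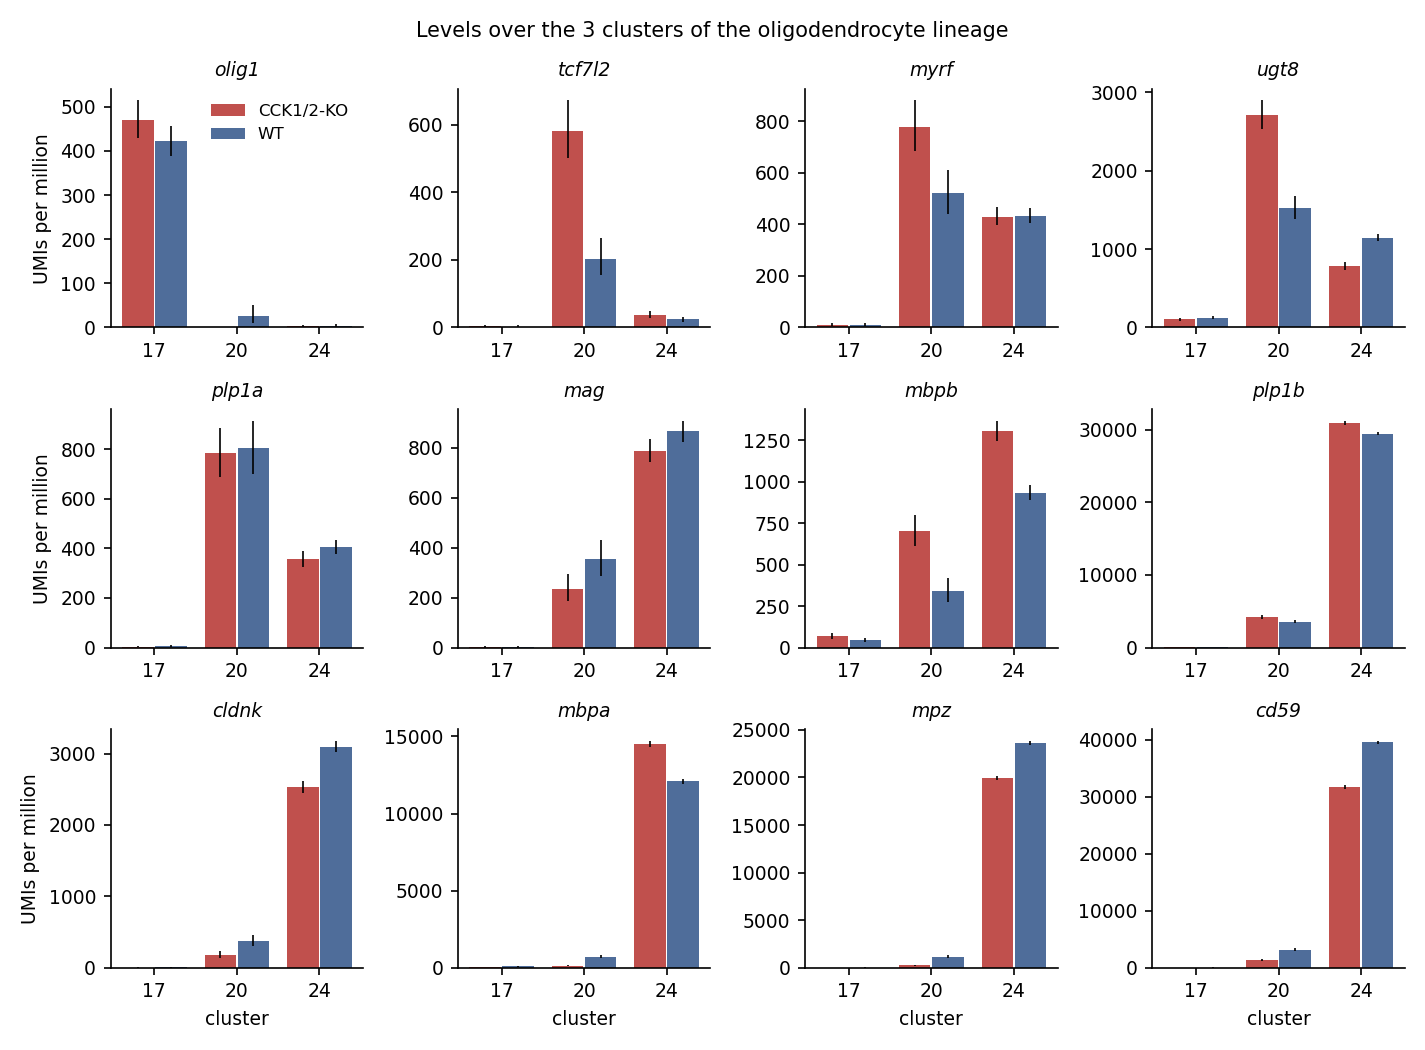
Levels (CPM of all UMIs) of 3 transcription factors (MYRF is labelled myrf) and the 9 myelin genes, with CCK1/2-KO left of WT. The clusters are 17 (precursor-like), 20 (the small oligodendrocyte-like cluster) and 24 (the main oligodendrocyte-like cluster). Bars start at 0, each panel has its own scale, and the intervals are exact 95% Poisson intervals. In these summed levels ugt8 and plp1a are highest in cluster 20, and the other members in cluster 24. The share of WT cells with ugt8 or plp1a was not higher in cluster 20 than in cluster 24.

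The precursors chosen by olig1 or sox10 were a mixture of these stages and of other cells. Of 349 CCK1/2-KO cells, 104 lay in the precursor-like cluster, 26 in the oligodendrocyte-like clusters and 219 elsewhere, and of 369 WT cells 117, 26 and 226. Summed over these cells the 9 genes were at 1529 (1483 to 1577) CPM in CCK1/2-KO and 1164 (1126 to 1203) in WT, a log2 ratio of 0.39 (0.33 to 0.46). Of the 9 genes, 3 were at least 1.5-fold higher in CCK1/2-KO, mbpb (124 and 53.2, log2 1.22), plp1b (547 and 291, log2 0.91) and ugt8 (366 and 199, log2 0.88), and mpz was lower (57.6 and 102, log2 −0.82). The background over the 7741 genes tested in these cells was 5.34% higher and 3.4% lower. The remaining members were plp1a (97.8 CPM in CCK1/2-KO and 74.1 in WT, log2 0.40, 0.14 to 0.66), mbpa (76.8 and 115, log2 −0.58, −0.84 to −0.33), cd59 (197 and 269, log2 −0.45), cldnk (28.2 and 28.7, log2 −0.03) and mag (35.7 and 32.7, log2 0.13, −0.29 to 0.55).

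The 26 cells in each library from the oligodendrocyte-like clusters decided these sums. They held 76.0% of the 9 genes' UMIs in the CCK1/2-KO precursors and 61.1% in the WT precursors, and were deeper in CCK1/2-KO (median 14146 UMIs, against 4080.5 in WT), where they made up 11.8% of all the precursors' UMIs, against 7.43% in WT. Within each part of the mixture the sum of the 9 genes was not higher in CCK1/2-KO beyond counting error. It was 273 in CCK1/2-KO and 399 in WT in the precursor-like cluster, 9856 and 9570 in the oligodendrocyte-like clusters (log2 0.04, −0.04 to 0.12) and 528 and 572 in the other cells. Single genes did differ within these parts. In the oligodendrocyte-like clusters mbpb (log2 1.27, 0.87 to 1.68), ugt8 (0.61) and plp1b (0.46) were higher in CCK1/2-KO. There mbpa (−3.23), mpz (−2.55), cd59 (−1.13) and mag (−0.55) were lower. Few cells weigh on mag and mbpb. In the small oligodendrocyte-like cluster, outside the oligodendrocyte rule, 3 cells held 90.8% of the mag UMIs in CCK1/2-KO and 89.8% in WT. For mbpb these shares were 76.2% and 63.75%. Over all precursors, dropping 3 top cells per library moved mag from 0.13 to 1.21 (0.20 to 2.29). It moved mbpb from 1.22 to 0.68 (0.32 to 1.04) and plp1a from 0.40 to 1.09. This was not tested within the parts. In the precursor-like cluster mbpb was higher (0.64, 0.11 to 1.18), while mbpa (−1.30), cd59 (−1.02), mpz (−0.95) and ugt8 (−0.39) were lower. With only cells that had no UMI of mbpa, mpz and plp1b, the log2 ratio was −0.02 (−0.31 to 0.27). That choice sets these 3 genes to 0, so the value covers the other 6 only. It cannot show whether the difference in the sum of all 9 remains.

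Of the transcription factors with enough counts, olig1 and sox10 chose the precursors and are left out of this count. Among the others, 3 were at least 1.5-fold higher in the CCK1/2-KO precursors and none was lower, against 5.34% higher and 3.4% lower over all genes. The 3 were MYRF (103 and 54.2 CPM, log2 0.93), tcf7l2 (114 and 62.4, log2 0.87) and olig2 (538 and 355, log2 0.60). The clusters differed in these factors. In the precursor-like cluster MYRF had 11 UMIs in CCK1/2-KO and 12 in WT and tcf7l2 had 3 and 3. The small oligodendrocyte-like cluster held 253 and 146 UMIs of MYRF and 189 and 57 of tcf7l2. The level of olig2 was 1191 CPM in CCK1/2-KO and 695 in WT in the precursor-like cluster. The rest were sox8b (27.1 and 29.4), zeb2a (293 and 279) and zeb2b (24.1 and 18.0). The factors that chose the cells, olig1 (204 and 209) and sox10 (485 and 432), are given as a description. The precursor genes cspg4 (76.0 in CCK1/2-KO and 94.4 in WT, log2 −0.31), nkx2.2a (73.0 and 54.2, log2 0.43) and ascl1a (19.9 and 27.1, log2 −0.44) were below 1.5-fold. Markers of other cells also differed between these sets. Of the macrophage list (93.7 CPM in CCK1/2-KO and 140 in WT) 1 gene was lower, and of the endothelial list (166 and 111) 1 was higher. Of the neuronal list (3993 and 4403) 2 were lower. Of the astrocyte and radial glia list (6981 and 6654) 1 was higher, glulb (270 and 168 CPM, log2 0.69), and 1 lower, cyp19a1b (43.6 and 264). Of the red blood cell list (3987 and 4279) the haemoglobin genes hbaa2 (11.3 and 37.6, log2 −1.73) and hbba2 (53.4 and 164, log2 −1.62) were lower. Their part in the result was not tested.

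In the cells called neurons all 9 genes were seen at low levels. Summed, they were at 247 (242 to 252) CPM in CCK1/2-KO neurons and 379 (373 to 386) in WT neurons, a log2 ratio of −0.62 (−0.66 to −0.58). Outside the neuron-like clusters lay 2604 CCK1/2-KO and 2285 WT neurons, with 4582 and 7439 UMIs of the 9 genes. Of these, 779 and 715 cells lay in the unnamed cluster 4, with 1780 and 2761 UMIs. Among the neurons, 1 CCK1/2-KO and 24 WT cells lay in the small oligodendrocyte-like cluster, with 13 and 567 UMIs of the 9 genes. Another 4 CCK1/2-KO cells lay in the precursor-like cluster, with 21 UMIs. The part of these cells in the result was not tested. Of the 9 genes, 3 were at least 1.5-fold lower in CCK1/2-KO, mpz (27.6 and 57.3, log2 −1.05, −1.17 to −0.94), plp1b (51.6 and 86.6, log2 −0.75) and cd59 (76.2 and 119, log2 −0.64), and none was higher. The background over 16514 genes in neurons was 0.933% higher and 1.17% lower. The gene cldnk, with 4.93 in CCK1/2-KO and 8.88 in WT, had a log2 ratio of −0.85 that stayed under the 1.5-fold limit once 5 CPM were added to both sides. The genes mag (10.6 and 9.87, log2 0.10, −0.12 to 0.33) and plp1a (1.84 and 2.15, log2 −0.22, −0.74 to 0.30) did not differ beyond counting error, and mbpb (24.1 and 27.5, log2 −0.19) and mbpa (47.9 and 64.6, log2 −0.43) were lower in CCK1/2-KO. The remaining gene, ugt8, had 68 UMIs in CCK1/2-KO and 105 in WT (log2 −0.78).

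A UMI of mpz was seen in 4.64% (4.03 to 5.31) of CCK1/2-KO neurons and 9.43% (8.50 to 10.4) of WT neurons thinned to 1000 UMIs, against 15.9% and 30.0% without thinning, and the thinning left out 753 CCK1/2-KO and 656 WT cells. In hbaa1-rich barcodes, which hold red blood cells and should make no myelin, the thinned share was 7.68% (5.40 to 10.5) in CCK1/2-KO and 10.8% (7.84 to 14.4) in WT. At this equal depth the share in neurons was no higher than in hbaa1-rich barcodes. Without thinning, CCK1/2-KO had 958 mpz UMIs in 5107 neurons and 69 in 533 hbaa1-rich barcodes. WT had 1788 in 4250 neurons and 106 in 411 hbaa1-rich barcodes. The source of mpz in neurons was not tested. The neurons' median depth was 5371 UMIs in CCK1/2-KO and 5717.5 in WT, and that of the hbaa1-rich barcodes 1572 and 1714.

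In the hbaa1-rich barcodes, where haemoglobin genes took 53.5% of UMIs in CCK1/2-KO and 55.3% in WT, the 9 genes summed to 251 (228 to 277) CPM in CCK1/2-KO and 359 (330 to 389) in WT (log2 −0.51, −0.70 to −0.33). Outside haemoglobin the log2 ratio was −0.57. Of the 9 genes 4 had enough counts, and of these cd59 was lower in CCK1/2-KO (68.4 and 114, log2 −0.74, −1.09 to −0.39) and none was higher, against 6.23% higher and 5.87% lower over 1108 genes. The other 3 were mpz (42.5 and 65.3, log2 −0.62, −1.08 to −0.17), plp1b (62.9 and 77.0, log2 −0.29, −0.68 to 0.10) and mbpa (65.9 and 73.3, log2 −0.15, −0.54 to 0.24). The gene mag had 3 UMIs in CCK1/2-KO and 0 in WT, which allows up to 1.85 CPM. Of the remaining genes, cldnk had 8 UMIs in CCK1/2-KO and 21 in WT, mbpb 4 and 18, ugt8 2 and 7, and plp1a 2 and 1. With hbaa1 required at 30% of UMIs few counts remained, and the interval of the log2 ratio of the sum ran from −1.05 to 1.36. Over all cells the 9 genes were at 3023 in CCK1/2-KO and 4866 in WT (log2 −0.69). The share of oligodendrocytes in CCK1/2-KO, which mbpa, mpz and plp1b define, was 0.717 times that in WT. Its part in this difference was not tested.

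The proportions of the genes in neurons and hbaa1-rich barcodes were compared with those inside oligodendrocytes of the same library, taking mpz as the unit. For plp1b the ratio to mpz in neurons was 1.20 times that in oligodendrocytes in CCK1/2-KO and 1.21 times in WT, and in hbaa1-rich barcodes 0.952 and 0.946 times. For mbpa it was 2.38 and 2.198 times in neurons and 2.13 and 2.19 times in hbaa1-rich barcodes. The factor of mbpa was thus about the same in neurons as in hbaa1-rich barcodes. For cd59 the factor was 1.73 in CCK1/2-KO and 1.24 in WT in neurons, and 1.01 and 1.04 in hbaa1-rich barcodes.

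The factors of mbpb and mag in neurons were the highest of the 8 genes in both libraries, and their source was not tested. The ratio of mbpb to mpz was 13.3 times that of oligodendrocytes in CCK1/2-KO neurons (836 UMIs) and 12.1 times in WT neurons (857 UMIs), but in hbaa1-rich barcodes it was 0.884 times in CCK1/2-KO (4 UMIs) and 4.27 times in WT (18 UMIs, of which 3 cells held 72.2%). In the neuron-like clusters alone, with 2503 CCK1/2-KO and 1965 WT neurons, the factor was 21.9 and 20.4. Their level was 25.9 CPM in CCK1/2-KO and 29.6 in WT, and a UMI of mbpb was seen in 16.3% of the CCK1/2-KO and 20.4% of the WT cells. Outside the clusters of the oligodendrocyte lineage, mbpb stood highest in the T or NK cell-like cluster of WT, with 120 CPM (104 UMIs in 68 of 248 cells), against 42.2 in CCK1/2-KO (34 UMIs in 27 of 235 cells).

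The ratio of mag to mpz in neurons was 9.84 times that of oligodendrocytes in CCK1/2-KO (368 UMIs) and 4.71 times in WT (308 UMIs). Its UMIs were uneven over the clusters. In 1 astrocyte or radial glia-like cluster mag stood at 54.6 CPM in CCK1/2-KO and 32.5 in WT and was seen in 98 of 284 and 70 of 241 cells, while mpz was at 15.3 and 21.0 there. In neuron-like clusters 14 and 16 mag was at 26.4 and 42.7 in CCK1/2-KO and 33.4 and 31.1 in WT, and in neuron-like cluster 8 at 3.68 in CCK1/2-KO and 3.02 in WT.

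**Figure D5:**
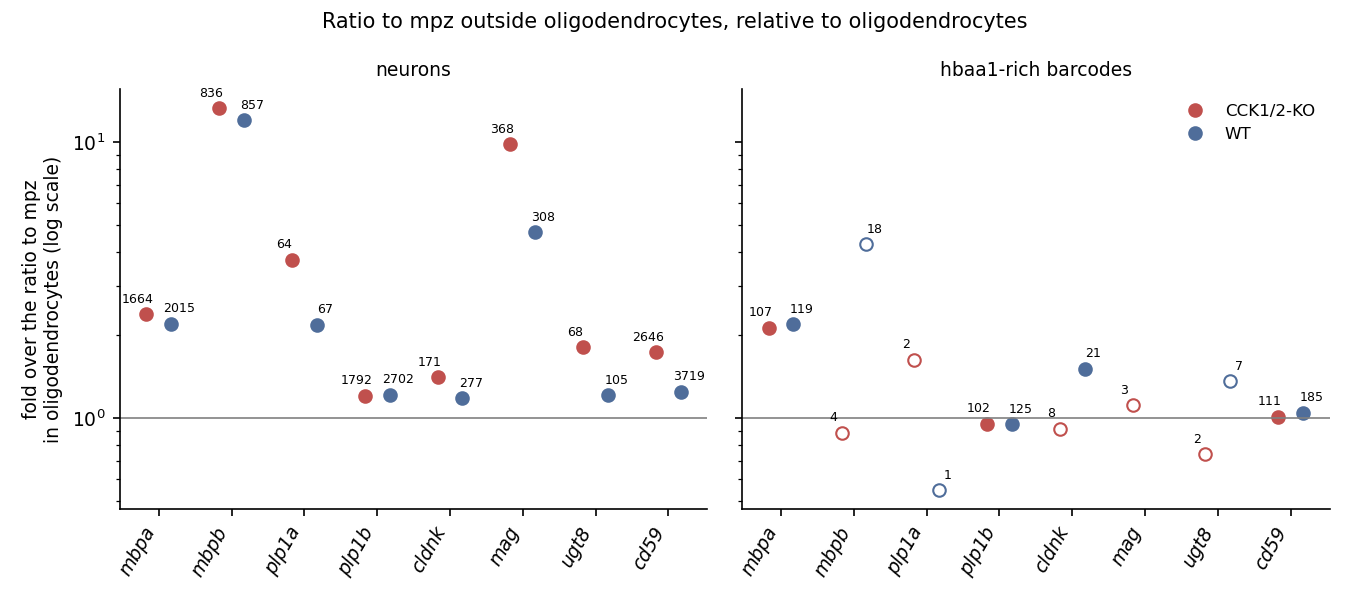
Ratio of each gene's UMIs to those of mpz, divided by the same ratio in oligodendrocytes of the same library (log scale), in neurons (left) and hbaa1-rich barcodes (right), with CCK1/2-KO left of WT. Numbers are UMI counts, open points have under 20 UMIs, and mag in WT hbaa1-rich barcodes (0 UMIs) is not drawn. In neurons mbpb lies at 13.3 and 12.1 and mag at 9.84 and 4.71, while plp1b lies near 1 in all 4 sets.

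The lower neuronal values in CCK1/2-KO depended on which cells were counted. Within neuron-like clusters the sum of the 9 genes had a log2 ratio of −0.29 (−0.35 to −0.23), while in cells that met the neuron rule in other clusters it was −0.87 (−0.92 to −0.81). The ratio of mpz was about the same in both, −1.01 and −1.09. That of cd59 was −0.08 in neuron-like clusters and −0.99 in the other cells, and that of mbpa −0.13 and −0.64.

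The genes whose level across clusters was most like that of mbpa were found over 52 points, each a cluster of 50 or more cells in 1 library, among 12728 genes. The 5 highest Pearson correlations of log2 levels were those of mpz (0.96), plp1b (0.96), si:dkey-200l5.4 (0.94), cd59 (0.93) and cldnk (0.93). The members mbpb (0.76, rank 46), plp1a (0.80, rank 31), ugt8 (0.74, rank 52) and mag (0.72, rank 60) followed further down. The points share libraries and all rest on the contrast between oligodendrocytes and the rest, so the correlations describe likeness and carry no test.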

How the data were processed

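The data are 10x 3′ single-cell libraries of the hypothalamus from 30 pooled CCK1/2-KO and 30 pooled WT zebrafish, 1 library each. The deposited matrices hold UMI counts per gene and barcode, which the authors made with Cell Ranger on GRCz11 (Seurat is also named in the submitters' processing notes); the annotation release is not given in the sources used here. Poly(dT) priming reads the 3′ end, so counts carry no length term. There were 11604 CCK1/2-KO barcodes with 58095515 UMIs and 9364 WT barcodes with 51744329 UMIs. Barcodes with under 500 UMIs or 250 genes (130 and 117) or over 20% mitochondrial UMIs (4 and 3) were removed, and then those with the highest Scrublet doublet scores, 0.8% per 1000 deposited barcodes (1077 and 701). Of 11398 features without a symbol, 8368 were named from a reference table.

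Cells were clustered with scanpy 1.11.5 (2000 variable genes without the 9 members, 30 components, 15 neighbours, Leiden resolution 1) in Python 3.11.15 with numpy 2.4.6, scipy 1.17.1, pandas 2.3.3 and matplotlib 3.10.9. Counts were summed per library and cell group. Intervals are exact Poisson for levels, exact conditional for ratios and Clopper-Pearson for shares, with the Katz interval for the ratio of shares. With 1 library per genotype no test between genotypes was made. A gene counted as higher or lower past 1.5-fold with 5 CPM added, if it had 100 UMIs. Cells were thinned to 1000 UMIs for shares of cells with a UMI. The ratio intervals were run only on simulated Poisson counts, the model they assume, so that run does not cover spread between cells or fish. Named were all 9 members, every lineage factor and precursor gene with 100 UMIs, the 3 most abundant and all changed genes of the other lists, and the 5 genes most like mbpa, except 1 gene that is not reported here. The members and lists were chosen with earlier results of these data known. Alternatives changed the cell filters, group limits, doublet removal, scale and weighting.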

Additional observations from a re-analysis of the deposited data

Results flagged for a closer look

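Of the 9 genes, 3 had ratios of opposite sign in precursors and in oligodendrocytes, with both counting intervals clear of 0. The difference between the cell groups was not tested, since there is 1 library per genotype. The log2 ratio of mbpa, CCK1/2-KO over WT, was −0.58 (−0.84 to −0.33) in precursors and 0.26 (0.23 to 0.28) in oligodendrocytes. With doublets kept it was 0.11 (−0.05 to 0.26) in precursors, which no longer has the opposite sign. That of plp1a was 0.40 (0.14 to 0.66) in precursors and −0.20 (−0.37 to −0.04) in oligodendrocytes. In precursors 97.7% of the plp1a UMIs in CCK1/2-KO and 94.3% in WT lay in the 26 cells of each library that fell in oligodendrocyte-like clusters. Within the parts of the precursors it was not higher in CCK1/2-KO: −1.18 in the precursor-like cluster, −0.21 (−0.48 to 0.06) in the oligodendrocyte-like clusters and −0.26 in the other cells. That of ugt8 was 0.88 (0.73 to 1.03) in precursors and −0.56 (−0.66 to −0.45) in oligodendrocytes. For ugt8, 89.8% of the UMIs of the CCK1/2-KO precursors and 68.5% of those of the WT precursors lay in these 26 cells. Its ratio was 0.61 (0.44 to 0.78) in the precursors of the oligodendrocyte-like clusters. In those of the precursor-like cluster it was −0.39 (−0.78 to −0.02), and in the other cells −2.33. For mbpa the ratios in these 3 parts were −3.23, −1.30 and 0.12 (−0.21 to 0.45). Over all cells of the precursor-like cluster the ratio was −0.26 for ugt8, −1.19 for plp1a (3 and 9 UMIs) and −1.13 for mbpa. For mbpa 3 WT cells held 82.3% of the UMIs there, and the share of cells with a UMI after thinning to 1000 UMIs was 7.62% in CCK1/2-KO and 4.17% in WT.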

How the results depend on the processing

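Log2 ratios are CCK1/2-KO over WT. The 6 myelin genes outside the oligodendrocyte rule had −0.37 with doublets kept, −0.40 over all cells of oligodendrocyte-like clusters, −0.25 at 2000 to 8000 UMIs and −0.32 when the 3 highest cells per library were left out. The ratio of plp1b in oligodendrocytes turned to −0.035 over the oligodendrocyte-like clusters and to −0.00999942 as a mean over cells. With doublets kept, 1 member (ugt8) passed 1.5-fold in oligodendrocytes. The ratio of oligodendrocyte shares was 0.613 with the limit at 5%. In precursors the 9 genes had 0.24 with doublets kept, 0.66 with 2 or more UMIs of olig1 and sox10, and −0.40 in the precursor-like cluster. In cells with 0 UMIs of mbpa, mpz and plp1b, where only the other 6 genes can count, the sum had −0.022. Single genes in precursors also turned: mbpa to 0.11 with doublets kept, plp1a to −1.19, ugt8 to −0.16 and cd59 to 0.12 in cells with 0 UMIs, and plp1a to −1.19, plp1b to −0.40 and ugt8 to −0.26 in the precursor-like cluster. In neurons the 9 genes had −0.57 at 1000 UMIs and 500 genes, −0.43 with 10 pan-neuronal UMIs, −0.49 with mbpa, mpz and plp1b under 0.5% and −0.29 in neuron-like clusters. They had 0.19 with hbaa1 at 30%, and over all cells −0.67 at 1000 UMIs and 500 genes. The cause of these shifts was not tested. Of the other values for single genes, 62 lay outside the counting interval of the reported value and 115 inside it. The limit of 2000 to 8000 UMIs, the precursor-like and the neuron-like clusters were chosen after seeing the data. No paired analysis was possible because there is 1 library per genotype. Intervals cover counting error only, and differences between pools of fish, dissections and library preparations cannot be told apart from genotype.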
